A study of Mus musculus with 4 samples.

Results

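The 8 CC chemokine genes described here are Ccl2, Ccl3, Ccl4, Ccl5, Ccl6, Ccl7, Ccl9 and Ccl12. With earlier results of these data known, they were chosen by name out of 16342 genes listed in any of the 4 count tables. They were measured in single cells of the corpus callosum, the large white matter tract of the mouse brain, in male C57BL/6 mice aged 13 weeks. One group had received cuprizone, a copper chelator that kills oligodendrocytes and strips myelin, up to week 5 (2 libraries), and the other group, week 0, was not treated (2 libraries). Tissue was dounced and live nucleated cells that stained for CD11b, an integrin of myeloid cells, were sorted, so the gate decides which cells are seen, and transcripts were counted at their 3′ ends with unique molecular identifiers (UMIs). The labels do not say whether the libraries of a group are separate animals, so the p-values measure the spread between these libraries, which may be technical.

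Chemokines are small secreted proteins that draw leukocytes along a gradient through G protein-coupled receptors, and the CC class is named for a pair of adjacent cysteines. Ccl2, Ccl7 and Ccl12 belong to the monocyte chemoattractant proteins and act on Ccr2. Ccl3 and Ccl4 are the macrophage inflammatory proteins, and Ccl3 and Ccl5 bind Ccr1. Ccl6 and Ccl9 are rodent chemokines that act on Ccr1. In the brain, microglia and border macrophages are known sources of these ligands during inflammation and loss of myelin.

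All 8 genes lie on chromosome 11 (GRCm38). The monocyte chemoattractant genes form one stretch, with Ccl2 at 82035571 to 82037453, Ccl7 at 82045712 to 82047525 and Ccl12 at 82101845 to 82103400, all on the plus strand. The other genes follow in a second stretch, with Ccl5 at 83525778 to 83530518, Ccl9 at 83572919 to 83578636, Ccl6 at 83587882 to 83593087 and Ccl3 at 83647844 to 83649355 on the minus strand, and Ccl4 at 83662584 to 83664683 on the plus strand. Each is protein-coding. Ccl2 overlaps Gm17268 and Ccl6 overlaps E230016K23Rik, each on the opposite strand. Because the kit reads 3′ ends, the last 500 bases of each transcript were compared with all other transcripts. Ccl2, Ccl3, Ccl4, Ccl7 and Ccl12 had no match, and the best matches of Ccl5, Ccl6 and Ccl9 were to unrelated genes, at 81.4% to 81.7% identity over 129 to 202 bases.

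Promoter sequence (250 bases before to 50 after the gene start, RefSeq, GRCm38.p6) was matched for 4 of the 8 genes, Ccl3, Ccl6, Ccl9 and Ccl12; Ccl2, Ccl4, Ccl5 and Ccl7 were not matched. Of these, 3 are shown because their genes behaved differently in the cells: Ccl3 was a gene of few, high-count cells, Ccl12 was shared with interferon-response cells, and Ccl9 was broadly present. Capitals mark motif matches on either strand.
Ccl3, chr11:83649329-83649628, minus strand: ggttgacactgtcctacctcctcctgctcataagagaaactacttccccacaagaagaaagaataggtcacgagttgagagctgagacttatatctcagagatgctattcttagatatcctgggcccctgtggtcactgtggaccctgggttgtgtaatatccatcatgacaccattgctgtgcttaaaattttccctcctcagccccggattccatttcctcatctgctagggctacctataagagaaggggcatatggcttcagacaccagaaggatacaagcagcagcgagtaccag
Ccl12, chr11:82101595-82101894, plus strand: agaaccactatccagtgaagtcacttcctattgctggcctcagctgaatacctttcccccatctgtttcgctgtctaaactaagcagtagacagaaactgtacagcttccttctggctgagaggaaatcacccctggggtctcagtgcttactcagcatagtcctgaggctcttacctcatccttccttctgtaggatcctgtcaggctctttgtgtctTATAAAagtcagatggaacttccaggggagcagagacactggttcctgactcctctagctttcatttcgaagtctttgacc
Ccl9, chr11:83578587-83578886, minus strand: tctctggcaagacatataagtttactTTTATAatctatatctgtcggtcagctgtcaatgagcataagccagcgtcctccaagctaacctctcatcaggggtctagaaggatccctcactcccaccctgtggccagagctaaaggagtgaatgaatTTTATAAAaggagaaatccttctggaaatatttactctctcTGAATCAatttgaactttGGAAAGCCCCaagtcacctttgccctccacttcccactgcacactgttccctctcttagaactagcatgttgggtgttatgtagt
The motifs searched on both strands were a pair of forms of the NF-kB site, GGGA and CC with 4 bases between them and GGAAA and CCC with 2 bases between them, TGANTCA (AP-1), a core of the interferon-stimulated response element, GAAA and GAAA with 2 bases between them, and TATAAA (the TATA box, added after the sequences had been seen). Ccl9 held the GGAAA form of the NF-kB site with its first base at -35 from the gene start, a motif found in 1.61% of 32544 promoters of this length, and TGANTCA at -53, found in 7.79%. TATAAA, found in 13.6% of promoters, stood at -31 in Ccl12 and at -92 in Ccl9, where a match on the other strand overlaps it at -94 and another lies at -224. The windows of Ccl3 and Ccl6 held none of the 5 motifs. The GGGA form of the NF-kB site (20.8% of promoters) and the interferon element core (3.45%) were in none of the 4 windows.

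The 4 tables held 6559032 and 3322818 UMIs in week 5 replicates 1 and 2, and 2415001 and 4631622 in week 0 replicates 1 and 2, over 1000 barcodes each; 0 to 2 barcodes were shared between any pair of libraries. After filters, 3707 cells were used, of which 3311 were microglia-like (703 and 809 at week 5, 901 and 898 at week 0). The groups and libraries filled the microglia-like clusters unevenly: one led by Ddit4 held 341 and 265 cells at week 5, against 21 and 22 at week 0. One led by Camk2n1 held 23 and 66 at week 5, against 49 and 341 at week 0. One led by Gp9 held 30 and 20 at week 5, against 147 and 383 at week 0, and one led by Gm43221 held 112 and 147 at week 5, against 475 and 91 at week 0. All 12 microglia markers were detected in each library. Their summed level in microglia-like cells was 27219 and 26813 CPM (UMI counts scaled to a common library size) at week 5, against 33639 and 37717 CPM at week 0. The summed level of 8 monocyte markers in the same cells was 40.7 and 20.3 CPM at week 5, against 8.55 and 11.4 CPM at week 0, with 2 and 2 of the 8 at 0 at week 5, against 3 and 4 at week 0. The part of these shifts in the results below was not tested. Cells of a cluster led by Spp1 (208 and 44 at week 5, 1 and 0 at week 0) were left unnamed because a monocyte marker, Fn1, and no microglia marker was among its 10 leading genes, although its summed microglia markers reached 12040 CPM, against 214 CPM for monocyte markers. They are outside the microglia-like cells, and values with them are given where they differ. Cell names were rebuilt from markers and may differ from those of the study.

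In microglia-like cells, 7 of the 8 CC chemokine genes rose at week 5 and none fell. The test was edgeR's quasi-likelihood test on UMIs summed per library, with an adjusted p under 0.05 over 10756 genes as the threshold; 3.17% of all genes tested passed it in either direction and 2.80% upward. All 8 genes were higher in both week 5 libraries than in both week 0 libraries, which held for 18.3% of all genes. The median log2 fold change of the 8 genes was 3.25, beside -0.01 over all genes tested. Because the 8 genes were chosen with earlier results known, these counts describe the set and do not test it. With the Spp1-led cluster added, 7 of the 8 rose, where 3.37% of genes passed in either direction, and all 8 were without overlap, as were 20.6% of genes upward. With all cells that passed the filter, 6 rose, where 2.69% of genes passed, and all 8 were without overlap, as were 21.0% of genes. Ccl6, at an adjusted p of 0.0560, was the gene whose call was lost there.

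**Figure D1:**
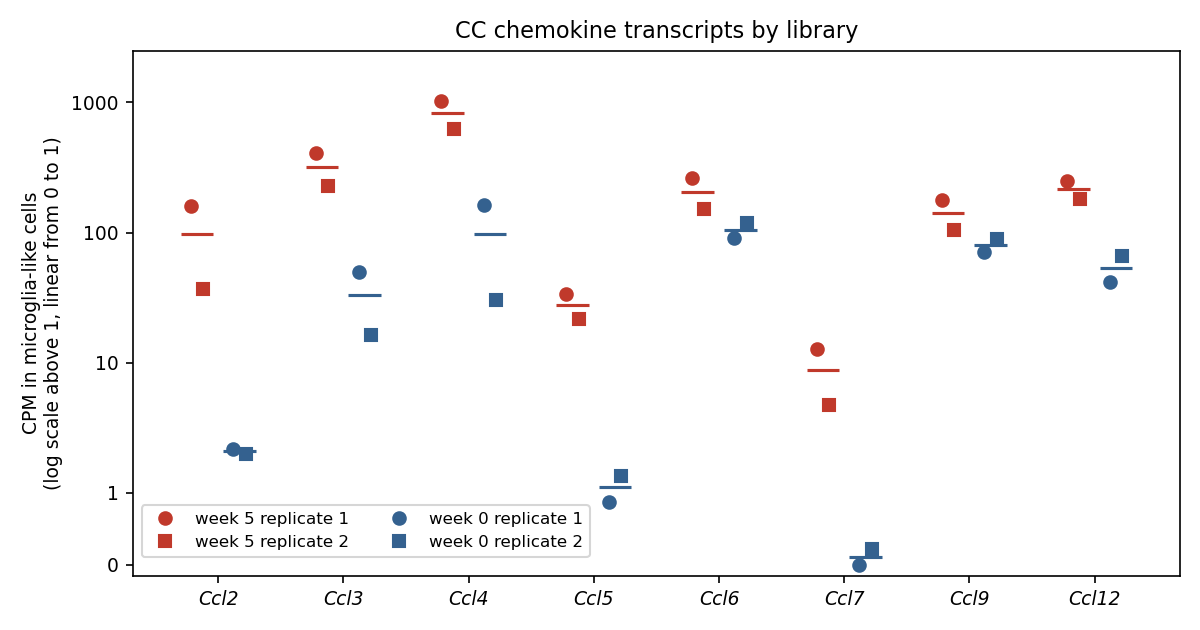
CPM in microglia-like cells (vertical axis, log scale above 1 and linear from 0 to 1) for each CC chemokine gene (horizontal axis). Points are libraries, red for week 5 and blue for week 0, circles for replicate 1 and squares for replicate 2, and bars are group means. The red points lie above the blue points for every gene, with the narrowest gaps for Ccl6 and Ccl9.

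Among the monocyte chemoattractant genes, Ccl2, the main ligand of Ccr2, had 159 and 36.8 CPM in week 5 replicates 1 and 2, against 2.18 and 2.00 CPM in week 0 replicates 1 and 2. Both week 5 libraries were far above week 0 but differed from each other by a larger factor than for any other member. The log2 fold change was 5.56 (SE 0.60, edgeR adjusted p = 1.03e-05). It was 4.14 without week 5 replicate 1 and 6.27 without week 5 replicate 2. One cell held 208 of the 503 Ccl2 UMIs of week 5 replicate 1.

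Ccl7, another ligand of Ccr2, had the fewest UMIs of the members. It had 12.7 and 4.74 CPM at week 5, from 40 and 13 UMIs, against 0 and 0.222 CPM at week 0, from 0 and 1 UMIs. The groups did not overlap, and the ratio of week 5 to week 0 counts was 61.1, with a 95% counting interval of 10.5 to 2459. The edgeR adjusted p was 0.00102, and without week 5 replicate 1 the gene no longer passed the filter on low counts. All 40 UMIs of week 5 replicate 1 lay in 8 cells.

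Ccl12, a mouse ligand of Ccr2, had 248 and 182 CPM at week 5, against 41.4 and 65.9 CPM at week 0. The lower week 5 library stood above the higher week 0 library by more than the gap within either group. The log2 fold change was 1.98 (SE 0.24, edgeR adjusted p = 2.99e-05), and it lay between 1.70 and 2.38 when any 1 library was left out.

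Of the macrophage inflammatory protein genes, Ccl4 had 1033 and 630 CPM at week 5, against 163 and 30.2 CPM at week 0. The week 0 libraries differed from each other by a larger factor than the week 5 libraries did. The log2 fold change was 3.15 (SE 0.49, edgeR adjusted p = 0.000546), and it was 4.78 without week 0 replicate 1 and 2.35 without week 0 replicate 2. With DESeq2's test the adjusted p was 0.137.

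Ccl3, which like Ccl4 draws leukocytes, had 412 and 227 CPM at week 5, against 50.1 and 16.2 CPM at week 0. Week 0 replicate 1 was again the higher of the week 0 libraries, and the groups did not overlap. The log2 fold change was 3.36 (SE 0.38, edgeR adjusted p = 1.51e-05), 4.29 without week 0 replicate 1 and 2.67 without week 0 replicate 2.

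Ccl5, a ligand of Ccr1 that T and NK cells also make in quantity, had 33.9 and 21.5 CPM at week 5, against 0.872 and 1.33 CPM at week 0. Its week 5 libraries were close to each other, and at week 0 the levels rest on 2 and 6 UMIs. The log2 fold change was 4.53 (SE 0.42, edgeR adjusted p = 1.86e-06). In microglia-like cells the summed T cell markers were 64.4 and 84.8 CPM at week 5, against 79.2 and 90.4 CPM at week 0, and the NK cell markers 12.5 and 9.42 CPM at week 5, against 10.8 and 11.1 CPM at week 0. These sums rest on few genes. Of 8 T cell markers, 7 and 6 were at 0 at week 5, against 6 and 6 at week 0. Of 7 NK cell markers, 5 and 4 were at 0 at week 5, against 5 and 6 at week 0. With all cells that passed the filter, Ccl5 was at 46.0 and 149 CPM at week 5, against 0.784 and 13.5 CPM at week 0, since a cluster outside the microglia-like cells also carried it.

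The rodent chemokine genes had the smallest fold changes. Ccl6 had 261 and 151 CPM at week 5, against 91.5 and 118 CPM at week 0, a log2 fold change of 0.97 (SE 0.24, edgeR adjusted p = 0.0311). The gap between the groups was small beside the gap between the week 5 libraries. The call was lost without week 5 replicate 1 (adjusted p = 0.534) and without week 0 replicate 1 (adjusted p = 0.0704). With the Spp1-led cluster added, Ccl6 had 561 and 201 CPM at week 5, against 87.9 and 113 CPM at week 0, and the log2 fold change was 1.92 (edgeR adjusted p = 0.0246).

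Ccl9 had 178 and 105 CPM at week 5, against 71.1 and 89.2 CPM at week 0. Its log2 fold change of 0.81 (SE 0.23) did not pass the test (edgeR adjusted p = 0.0706). It passed without week 5 replicate 2 (adjusted p = 0.000108) and without week 0 replicate 2 (adjusted p = 0.0143), so single libraries decide its side of the threshold.

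Few microglia-like cells accounted for most UMIs of Ccl2, Ccl3, Ccl4, Ccl5 and Ccl7. In week 5 replicate 1 the 10 highest cells held 95.6% of Ccl2 UMIs, 68.2% of Ccl3 UMIs and 70.0% of Ccl4 UMIs, and in week 5 replicate 2 they held 97.0%, 82.2% and 89.2%. They held 81.3% and 84.7% of Ccl5 UMIs and 100% and 100% of Ccl7 UMIs at week 5. At week 0 few cells also held most UMIs, since the 10 highest had 95.2% and 87.5% of Ccl4 UMIs and 89.6% and 65.8% of Ccl3 UMIs. For Ccl6 they held 26.2% and 20.3%, and for Ccl9 21.4% and 18.0%. Ccl12 lay between, with 52.9% and 55.6%.

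To compare shares of cells at equal depth, each cell was thinned to 1000 UMIs, which left out 60 and 100 microglia-like cells at week 5 and 145 and 69 at week 0. Ccl3 was then detected in 5.75% and 5.92% of microglia-like cells at week 5, against 1.46% and 1.09% at week 0. Ccl4 was detected in 7.78% and 4.23% at week 5, against 1.72% and 0.724% at week 0. Ccl12 was detected in 8.40% and 6.91% at week 5, against 3.04% and 3.98% at week 0. These 3 genes had shares at week 5 above both week 0 shares.

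Ccl5 was detected in 1.24% and 1.27% at week 5, against 0 of 756 and 0 of 829 cells at week 0, which allows shares of up to 0.397% and 0.362%. Ccl2 was detected in 2.49% and 0.423% at week 5, against 0.265% and 0.241% at week 0, and Ccl7 in 0.933% and 0.282% at week 5, against 0 of 756 cells and 0.121% at week 0. For Ccl2 and Ccl7 the counting intervals of week 5 replicate 2 overlap those of week 0, and so does that of Ccl7 in week 5 replicate 1. For Ccl4 the interval of week 5 replicate 2 (2.87% to 5.99%) overlaps that of week 0 replicate 1 (0.919% to 2.92%). For Ccl12 the interval of week 5 replicate 2 (5.16% to 9.03%) overlaps that of week 0 replicate 2 (2.76% to 5.55%). The groups overlapped for Ccl6, at 13.4% and 9.59% at week 5, against 6.22% and 12.1% at week 0, and for Ccl9, at 10.3% and 7.48% at week 5, against 5.69% and 8.44% at week 0. With 2 libraries a group, the two-sided exact permutation test cannot go below p = 0.333, which it gave for each of the 6 genes without overlap. Shares of cells were computed for the members only, so this count of 6 has no share over all genes beside it. With the Spp1-led cluster added, the Ccl6 shares no longer overlapped, at 19.3% and 12.1% at week 5, against 5.55% and 11.6% at week 0. The counting intervals of week 5 replicate 2 and week 0 replicate 2 overlap there.

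**Figure D2:**
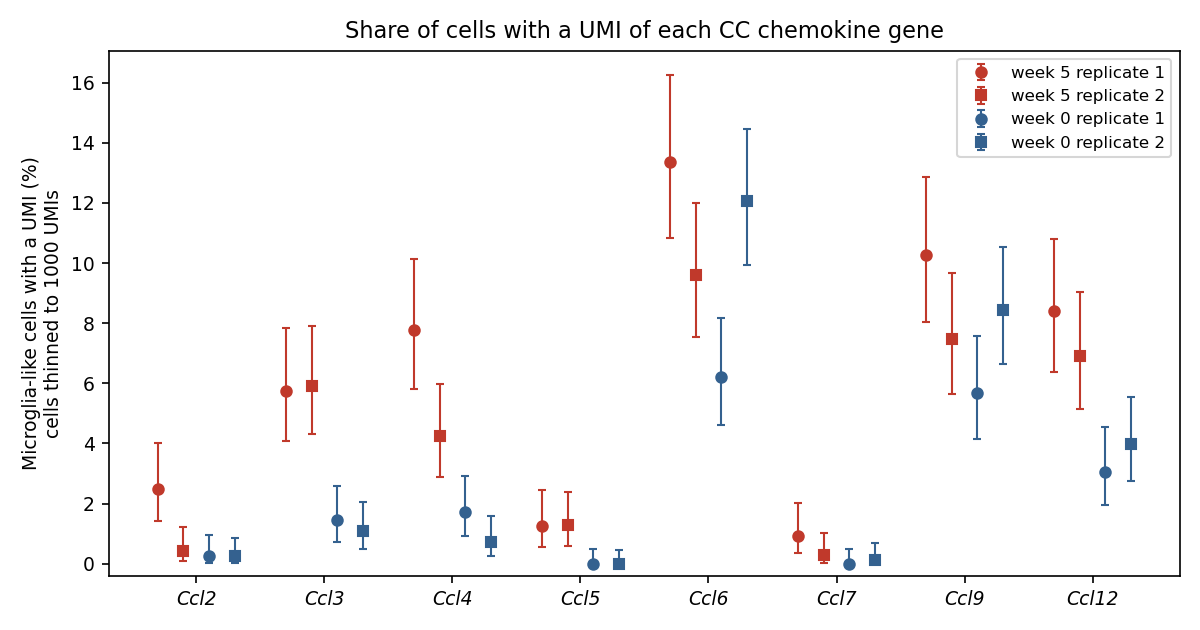
Percent of microglia-like cells with a UMI of each gene after thinning to 1000 UMIs, by library, week 5 in red and week 0 in blue, with 95% exact binomial intervals that cover counting error only. The week 5 points of Ccl3, Ccl4, Ccl5 and Ccl12 lie above both week 0 points, while those of Ccl6 and Ccl9 overlap them.

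Without thinning, the shares were 9.96% and 8.03% for Ccl3 at week 5, against 2.44% and 3.90% at week 0, and 11.4% and 7.17% for Ccl4 at week 5, against 3.11% and 3.01% at week 0. Ccl12, at 22.5% and 16.2% at week 5, against 6.77% and 16.8% at week 0, then overlapped. Median depth was 5022 and 2125 UMIs per microglia-like cell at week 5, against 1499 and 3912.5 at week 0. A single UMI need not be expression by the cell that holds it. Among choroid plexus-like and oligodendrocyte-like cells of week 5, which should lack these genes, 4 of 16 and 2 of 19 had a UMI of Ccl4. Of the same cells, 2 of 16 and 1 of 19 had one of Ccl3, at median depths of 6966.5 and 2288 UMIs. After thinning, 2 of 16 and 0 of 16 such cells had Ccl4. In week 5 replicate 1 these shares are above those of microglia-like cells for Ccl3 and Ccl4, with wide counting intervals (7.27% to 52.4% for Ccl4, not thinned). In week 5 replicate 2, not thinned, the share for Ccl4 is also above, at 10.5% against 7.17%, while that for Ccl3 is below, at 5.26% against 8.03%. The choroid plexus-like cluster also held microglia markers, at 5738 CPM. Whether the UMIs in these cells came from free RNA was not tested. Single UMIs are therefore not read as expression, and the counts of cells with 5 or more UMIs stand beside them. None of these 35 cells had 5 or more UMIs of Ccl2, Ccl3, Ccl4, Ccl5, Ccl7 or Ccl12, and 1 had as many of Ccl6 and 1 of Ccl9.

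Cells with at least 5 UMIs, not thinned, were therefore counted as well. Of 703 and 809 microglia-like cells at week 5, 29 and 22 reached that count for Ccl4, against 4 of 901 and 4 of 898 at week 0. For Ccl3 the cells numbered 27 and 14 at week 5, against 3 and 1 at week 0, and for Ccl12 32 and 16 at week 5, against 3 and 4 at week 0. For Ccl2 they numbered 10 and 2 at week 5, against 0 and 0 at week 0. For Ccl5 they numbered 7 and 4 at week 5 and for Ccl7 3 and 1, against 0 and 0 of either gene at week 0. For Ccl9 they numbered 28 and 7 at week 5, against 2 and 6 at week 0. For Ccl6 they numbered 40 and 11 at week 5, against 5 and 12 at week 0, shares of 5.69% and 1.36% at week 5, against 0.555% and 1.34% at week 0, so week 5 replicate 2 was level with week 0 replicate 2. After thinning to 1000 UMIs, 19 and 15 cells at week 5 still had at least 5 UMIs of Ccl4, against 2 and 2 at week 0, and 13 and 7 had as many of Ccl3 at week 5, against 2 and 1 at week 0. For Ccl12 the thinned cells numbered 6 and 4 at week 5, against 1 and 0 at week 0, and for Ccl2 3 and 2 at week 5, against 0 and 0 at week 0. Only 1 and 0 reached 5 UMIs of Ccl9 and 3 and 0 of Ccl6 at week 5, against 0 and 0 of either gene at week 0. For Ccl5 the thinned cells numbered 1 and 0 at week 5 and for Ccl7 0 and 0, against 0 and 0 of either gene at week 0. For Ccl5, Ccl6, Ccl7 and Ccl9, these counts in microglia-like cells at equal depth thus show no difference that both week 5 libraries share. Of the thinned Spp1-led cells, 3 of 208 and 2 of 43 had at least 5 UMIs of Ccl6 at week 5. Not thinned, 130 of 208 and 16 of 44 Spp1-led cells had as many of Ccl6. For Ccl3 it was 44 of 208 and 5 of 44, at median depths of 13505 and 5060.5 UMIs.

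Ccl3 and Ccl4 were found in the same cells more often than independence would give, though many cells had a UMI of only 1 of them. Of the thinned microglia-like cells of week 5 replicate 1, 50 had Ccl4 and 37 had Ccl3. Both were in 24 cells, where 2.88 would be expected if the genes fell into cells independently, a ratio of 8.34. In week 5 replicate 2, 30 cells had Ccl4 and 42 had Ccl3. Both were in 20 cells, where 1.78 would be expected. Of the cells with at least 5 UMIs of Ccl4, 26 of 29 and 18 of 22 also had Ccl3, against 6.53% and 5.97% of the other microglia-like cells of the same libraries. The high-count cells were deeper, with a median of 8481 and 5521 UMIs, against 4928 and 2045 for the others. Here and below a partner gene counts from 1 UMI, which need not be expression by that cell. At week 0, 3 of 4 and 3 of 4 cells with at least 5 UMIs of Ccl4 had Ccl3.

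Ccl2 was found beside Ccl3, Ccl4 and the other Ccr2 ligands. Of the 10 cells of week 5 replicate 1 with at least 5 UMIs of Ccl2, 9 had Ccl12, 8 had Ccl3, 7 had Ccl4 and 6 had Ccl7, and of the other 693 cells 2 had Ccl7. Both such cells of week 5 replicate 2 had Ccl3, Ccl4 and Ccl12. All 6 thinned cells with Ccl7 in week 5 replicate 1 had Ccl2. Ccl6 and Ccl9 were closer to independence, with observed over expected ratios in thinned cells of 1.81 and 1.38 at week 5, against 2.99 and 1.54 at week 0. Of cells with at least 5 UMIs of Ccl6, 27 of 40 and 5 of 11 had Ccl9 at week 5, against 31.1% and 20.2% of the other cells.

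**Figure D3:**
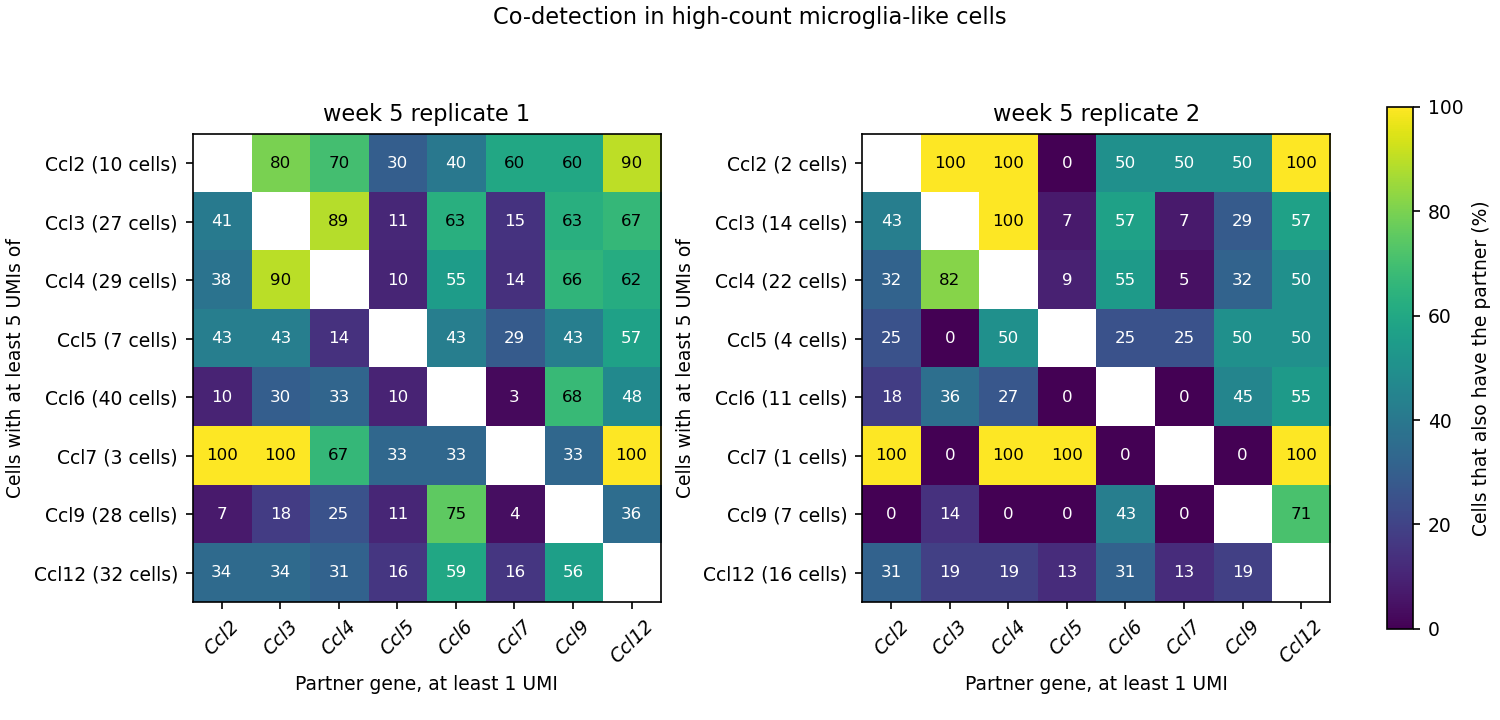
Each row is the set of week 5 microglia-like cells with at least 5 UMIs of one gene (number of cells in brackets), each column a partner gene, and color and number give the percent of those cells with at least 1 UMI of the partner. In both libraries Ccl3 and Ccl4 occur together in 81.8% to 100% of cells, while sets of under 5 cells, such as those of Ccl7, give coarse percents.

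More of the thinned microglia-like cells had a UMI of at least 2 of the 8 genes at week 5, which counts UMIs and not expression. The share was 10.9% and 6.06% at week 5, against 2.25% and 2.77% at week 0; independence of the genes would give 8.28% and 4.52% at week 5, against 1.18% and 2.22% at week 0. Of the thinned choroid plexus-like and oligodendrocyte-like cells, 1 of 16 and 0 of 16 had a UMI of at least 2 genes at week 5, too few to set a background. At least 2 genes with at least 5 UMIs each, not thinned, were found in 41 and 14 microglia-like cells at week 5, against 5 and 4 at week 0, and in 0 of 16 and 0 of 19 of those other cells at week 5. At least 4 genes with a UMI were found in 8 and 3 cells at week 5, against 0 and 1 at week 0. The highest number of genes in a thinned cell was 5.

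The members had different carriers. Cells were clustered again with the 8 genes left out, and the UMIs of each gene were assigned to the clusters. A cluster led by Ccl4, Egr1, Ccl3, Lilrb4a and Atf3 formed (83 and 99 cells at week 5, 7 and 5 at week 0). It was larger than the Ccl4-led cluster of the first clustering (26 and 21 cells at week 5, 5 and 6 at week 0): 53 of its 194 cells came from that cluster and 130 from a cluster led by Lilrb4a. It held 49.7% and 88.2% of all Ccl4 UMIs of the week 5 libraries, 36.0% and 75.3% of Ccl3 UMIs and 29.2% and 87.9% of Ccl2 UMIs. Ccl4 stood at 6917 and 6858 CPM there at week 5. The Ccl2 share of week 5 replicate 2 came mostly from 2 cells of this cluster, with 41.1% and 40.2% of the Ccl2 UMIs of that library. In microglia-like cells outside this cluster and the next, Ccl4 was at 54.2 and 16.8 CPM at week 5, against 14.6 and 9.04 CPM at week 0.

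A small cluster led by Cxcl10 and interferon-response genes such as Rsad2 and Ifit1 (34 and 20 cells at week 5, 5 and 4 at week 0) held 26.2% and 35.6% of Ccl12 UMIs and 21.6% and 85.7% of Ccl7 UMIs. Ccl12 was at 1506 and 2286 CPM in it at week 5. The Ccl7 share of week 5 replicate 2 rests on few UMIs, since 1 cell held 12 of the 13 in microglia-like cells. The Mrc1-led border-associated macrophage-like cells (29 and 26 at week 5) held a further 11.7% and 19.6% of Ccl12 UMIs. Of these cells in the first clustering, 14 of 29 and 9 of 25 had a UMI of Ccl12, and 0 of 29 and 1 of 25 had one of Ccl4. At least 5 UMIs of Ccl12 were found in 7 of 29 and 5 of 25.

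The Spp1-led cluster (181 and 26 cells at week 5) held 64.1% and 28.9% of Ccl6 UMIs, at 750 and 1112 CPM. In week 5 replicate 1 it also held 54.4% of Ccl3 UMIs, against 48.3% in the first clustering. Its share of Ccl2 UMIs in that library was 54.9%, against 22.3% in the first clustering, and most of that gap is 1 cell. The cell with 208 Ccl2 UMIs, 31.2% of those of the library, was in the Ccl4-led, microglia-like cluster at first and in the Spp1-led cluster afterwards. Ccl5 in week 5 replicate 2 came mostly from 17 cells of an unnamed cluster led by S100a6, Ms4a4b, Ccl5 and Nkg7, which held 82.3% of its UMIs. Ccl9 had 43.0% and 75.3% of its UMIs, more than any other member in either library, in microglia-like cells outside the Ccl4-led and Cxcl10-led clusters. The libraries thus differ in where the UMIs lie, as they do in the share of Spp1-led cells.

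**Figure D4:**
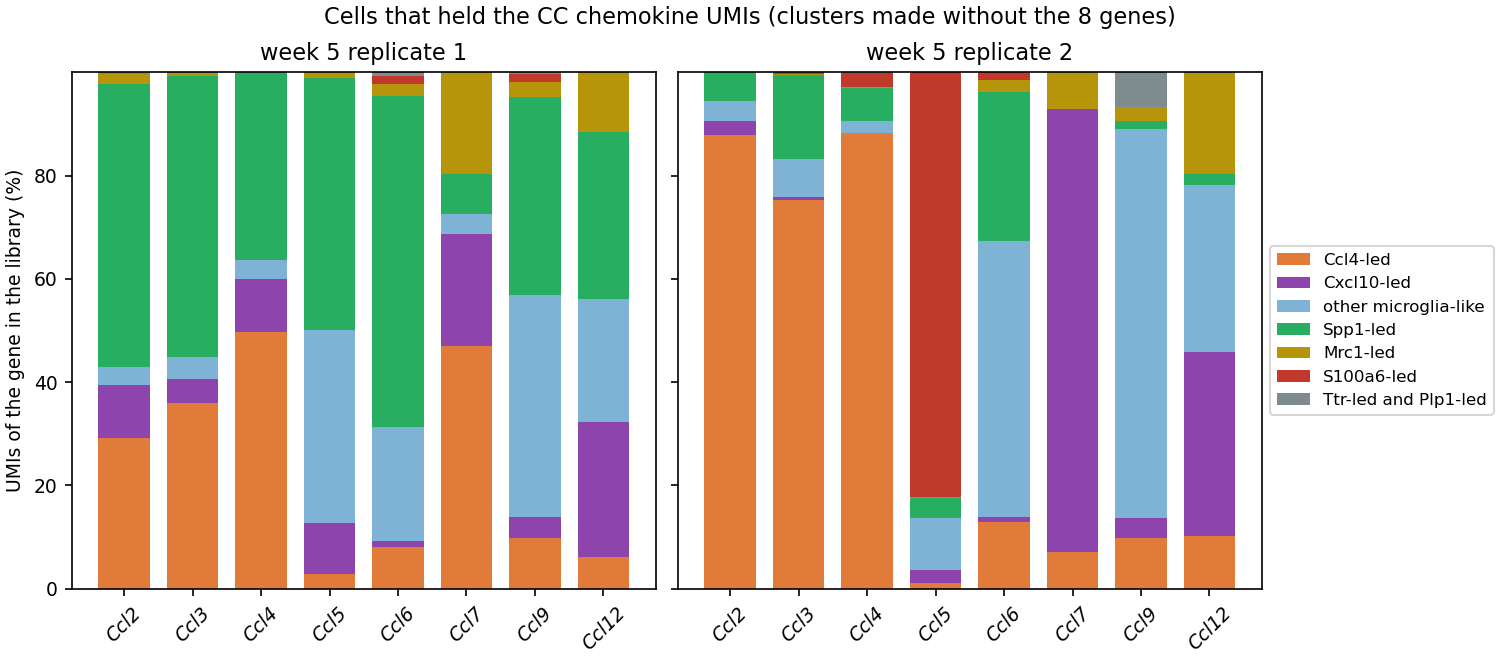
Percent of each gene's UMIs (vertical axis) held by each group of cells in the 2 week 5 libraries, from clusters made without the 8 genes. Ccl2, Ccl3 and Ccl4 lie mainly in the Ccl4-led and Spp1-led clusters, Ccl12 is split over several, and Ccl5 of week 5 replicate 2 lies mainly in the S100a6-led cluster.

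Across the thinned microglia-like cells of week 5, the genes most like each member were found by the mean Pearson correlation of log counts in the 2 libraries (643 and 709 cells) over 3047 genes detected in at least 5% of cells of both. These values share depth and library and are given as a description. Ccl3 was the closest to Ccl4, at 0.83, followed by Cd83, a surface protein of activated antigen-presenting cells, at 0.41, and Id2 at 0.34. Ccl2, Ccl4, Ccl5 and Ccl7 were under that limit and were not candidates, so Ccl4 (0.83) and Ccl2 (0.47) are not listed for Ccl3. Among the 3047 genes, Cd83 was the closest to Ccl3, at 0.38, followed by Id2 at 0.25 and the lipoprotein lipase gene Lpl at 0.25. Ccl2 was closest to Ccl3 (0.47), Cd83 (0.30) and Ccl12 (0.25), and Ccl7 to Ccl12 (0.36), Cd83 (0.22) and Ccl3 (0.21). The values of these 2 genes rest on few cells, since Ccl2 had a UMI in 16 and 3 of the thinned cells and Ccl7 in 6 and 2. Ccl12 was closest to the interferon-response genes Ifit3 (0.26), Slfn5 (0.25) and Ifi207 (0.22). No gene exceeded 0.18 for Ccl5, Ccl6 or Ccl9, whose leading genes were Fbxo11 (0.16), Cd9 (0.15) and Tmsb4x (0.17), and such weak values are not read further.

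Other genes of the pathway were read from 5 lists, also chosen with earlier results of these data known. Of 13 other CC ligands, 2 could be tested and neither passed: Ccl24 was at 9.19 and 6.57 CPM at week 5, against 9.59 and 11.8 CPM at week 0, and Ccl25 at 32.3 and 50.3 CPM at week 5, against 42.7 and 44.6 CPM at week 0. Of 14 receptors, 6 were tested and 1 passed: Ccrl2, an atypical receptor, rose, at 30.7 and 18.6 CPM at week 5, against 12.2 and 11.1 CPM at week 0 (log2 fold change 1.10, SE 0.29, edgeR adjusted p = 0.0448). Ccr1 was at 28.8 and 7.66 CPM at week 5, against 18.7 and 16.6 CPM at week 0, and Ccr2 at 2.53 and 5.11 CPM at week 5, against 3.49 and 7.10 CPM at week 0.

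Of 16 signalling genes tested, Rgs1, which ends G protein signalling, rose, at 92.5 and 81.3 CPM at week 5, against 57.5 and 29.3 CPM at week 0 (log2 fold change 1.05, edgeR adjusted p = 0.0245). Of 19 genes of NF-kB and AP-1 induction, 3 rose: the cytokine gene Il1b (log2 fold change 3.05, edgeR adjusted p = 0.00153), the transcription factor gene Atf3 (1.94, adjusted p = 2.86e-05) and Cd83, at 177 and 121 CPM at week 5, against 55.4 and 50.8 CPM at week 0 (adjusted p = 0.000203). The median of that list was 0.19. Of 15 interferon-response genes, 14 rose and Irf1 did not pass; the 2 largest rises among them were Cxcl10 (log2 fold change 6.38, SE 1.06), at 194 and 10.9 CPM at week 5, against 3.05 and 0.222 CPM at week 0, and Oasl2 (4.57, SE 0.28). The median of that list was 3.07, and none of the genes tested on these 5 lists fell.

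**Figure D5:**
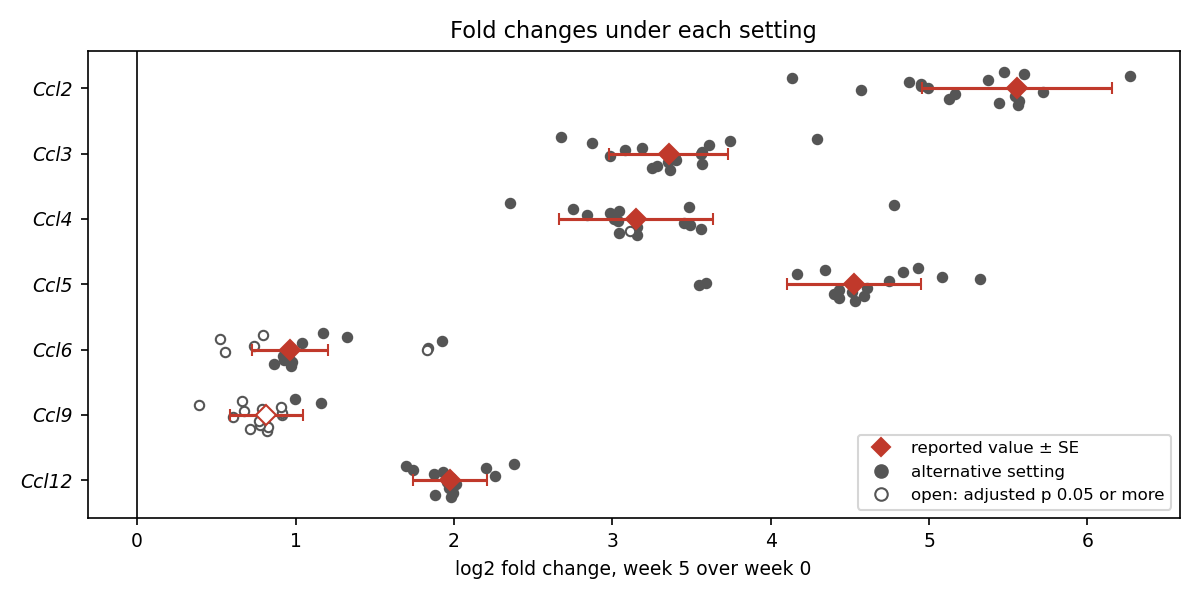
Log2 fold change, week 5 over week 0 (horizontal axis), for 7 genes; Ccl7 is left out because it had 1 UMI at week 0. Diamonds are the reported values with SE, circles the alternative settings, open symbols those with an adjusted p of 0.05 or more. All values lie above 0, and Ccl6 and Ccl9 hold most of the open symbols.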

How the data were processed

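Droplet 3′ libraries of CD11b-stained cells were deposited as whole-number UMI counts per gene and barcode, not normalized, as the deposited values show. The submitters' processing notes name STAR, Cell Ranger 3.0.0, Seurat 4 and mm10, with no role for each. Barcodes under 500 genes or above 10% mitochondrial UMIs were dropped (272 of 4000), and scrublet marked 21 doublets. A common scale of 10000 UMIs, 30 principal components of 2000 variable genes, 15 neighbours and Leiden resolution 1 (scanpy 1.11.5) gave the clusters. The 8 members, the gene lists and the naming rule were chosen with earlier results of these data known, and the rule was settled after the clusters were seen.

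UMIs of microglia-like cells were summed per library and tested with edgeR 4.0.16 (R 4.3.3; TMM, quasi-likelihood, Benjamini-Hochberg adjustment). CPM uses the effective library size; marker sums and values by cluster use total UMIs. In 10 simulated data sets of this comparison (10756 genes, 200 of them changed, mean log2 CPM of at least 5), 85.3% of 2-fold and 100% of 4-fold changes were recovered, and 5.87% of calls were false. Intervals are exact (Clopper-Pearson) at 95%, and a count of 0 allows up to 3 counts; both cover counting error only. Named genes were all members, from each other list those past the threshold (at most 6, by size) with the 2 highest by CPM, and the 3 most alike per member; 1 gene that this rule names is not reported here. Alternatives were other scalings and tests (DESeq2 1.42.0, limma 3.58.1), filters, depths, cell sets and leaving out each library. Transcript ends were compared with blastn 2.17.0.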

Additional observations from a re-analysis of the deposited data

How the results depend on the processing

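All 8 fold changes stayed above 0 in each alternative in which the gene could be tested. The count of CC chemokine genes called was 6 to 8 in every alternative with all libraries except thinning each cell to 1000 UMIs, which gave 4 of the 6 genes still tested; leaving out 1 library gave 5 to 8. Ccl4 was not called by DESeq2's test (log2 fold change 3.11, adjusted p = 0.137). Ccl6 was not called with thinned cells (0.55, adjusted p = 0.969), all cells (1.83, adjusted p = 0.0560) or a common limit on genes per cell (0.74, adjusted p = 0.0805), and its log2 fold change was 0.52 to 1.33 when 1 library was left out. Ccl9 was called with no gene filter (0.80, adjusted p = 0.00666) and was 0.39 to 1.16 when 1 library was left out. The share of Ccl4 cells with Ccl3 in week 5 replicate 2 was 44.8% (13 of 29 cells) when thinned to 500 UMIs and 44.8% (26 of 58) without thinning, against 66.7% as reported. The difference in the share of cells with at least 2 genes was 12.9 percentage points without thinning, where the libraries of the groups overlap, at 36.0% and 22.1% at week 5, against 8.77% and 23.6% at week 0. The cause of these shifts was not tested. Fits with 1 library in a group assume that it varies like the other group.

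The labels give no pairing beyond the replicate numbers. Deviations of same-numbered libraries from their group means correlated at -0.103. With 2 libraries a group both numbers give this same value by construction, so it cannot decide whether the libraries are paired. With the replicate block, 352 genes were called in all and 7 of the 8 members. Crossing the numbers, added after the data were seen, gave 537 calls and all 8 members, with Ccl9 at 0.80 (adjusted p = 0.00541). The Spp1-led cluster, also added afterwards, left 7 members called. With scaling by library size alone the median over all genes tested was -0.10 on the log2 scale, against -0.01 as reported. Depth limits Ccl7, with 1 UMI at week 0.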
